A study of Danio rerio with 12 samples.

Results

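Voltage-gated calcium channels were followed through the genes of their pore-forming, alpha2delta, beta and gamma subunits in whole zebrafish eyes. Members were the genes with a symbol that begins with cacna, cacnb or cacng on a probe set with exactly 1 gene symbol. This gave 44 genes on 46 probe sets, of 19260 genes named in this way on the array. For the gene with several probe sets, cacna1ib, the brightest stood for the gene. Of the 44 genes, 39 were bright enough to be tested among 14002 tested genes: 13 pore genes, 7 alpha2delta, 7 beta and 12 gamma genes. The 5 dim genes were the skeletal muscle pore gene cacna1sb and the gamma genes cacng1a, cacng1b, cacng6a and cacng8a. A further 4 genes of the family in the RefSeq gene table, cacna1ea, cacna1eb, cacna1fa and cacna1hb, had no probe set of their own here and were not analysed here.

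The study measured eyes of fish mutant in mmachc, a gene of vitamin B12 (cobalamin) processing, beside eyes of fish heterozygous for the mutation, so that every group carried at least 1 mutated copy and no wild-type group was used here. The 4 groups were mutant eyes at 28 days post fertilization (dpf), heterozygous eyes at 28 dpf, mutant eyes at 7 dpf and heterozygous eyes at 7 dpf. Each group was 3 pools of eyes with 1 Affymetrix array per pool, 12 arrays in all. The titles name the mutants homozygous, and nothing used here gives the type of mutation, the number of fish in a pool or the parentage of the pools. The p-values rest only on the spread between pools within the 4 groups, in 1 fit that shares its estimate across groups and genes.

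A voltage-gated calcium channel is built around a large pore subunit that senses voltage and lets calcium in. Cav1 pores carry L-type currents, Cav2 pores serve fast transmitter release at most synapses, and Cav3 pores open near the resting potential as T-type channels. The alpha2delta subunits bring channels to the surface and to synapses, and the cytosolic beta subunits bind the pore and set its trafficking and gating. Most of the gamma genes encode proteins, known as TARPs, that act mainly on AMPA-type glutamate receptors. The cacng1 and cacng6 genes encode muscle-type gamma subunits. In the retina, photoreceptors and bipolar cells release glutamate from ribbon synapses through L-type channels, and in humans mutations of CACNA1F cause congenital stationary night blindness and mutations of CACNA2D4 a cone dystrophy.

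All values are log2 RMA intensities, so 1 unit is a doubling, and levels are compared between groups for a given gene and never between genes. The words rose and fell are used of genes with an adjusted p under 0.05 in limma (Benjamini-Hochberg over all genes tested). The cone transducin gene gnat2, the bipolar gene vsx1, the lens gene cryaa and the pigment epithelium gene rpe65a all lay above the brightness limit of the test on all 12 arrays. The skeletal muscle gene actc1b did so too, so passing this limit does not by itself mark eye tissue. Array medians lay between 5.64 and 5.70, and within-group correlations over genes between 0.989 and 0.994. The median within-group SD was 0.0742 for the calcium channel genes and 0.0830 for all genes tested. Of the 39 channel genes, 36 lay above the brightness limit of the test on all 12 arrays, and cacng4b, cacng6b and cacna1ib did so on 11, 7 and 4 arrays. In whole eyes, fewer cells of a type and less RNA per cell cannot be told apart.

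At 28 dpf, 27 of the 39 calcium channel genes rose in mutant eyes and 1, cacna1sa, fell. Of all genes tested, 21.8% rose and 39% fell (60.8% either way). The median difference of mutant minus heterozygous eyes was 0.26 on the log2 scale for the channel genes, against -0.09 for all genes tested. The 3 mutant pools lay above the 3 heterozygous pools in 28 channel genes and below them in 1, where 23.6% and 40.8% of all genes did so (64.4% either way). The gene with all mutant pools below was cacnb3a, which did not pass the threshold, while the groups of cacna1sa overlapped. The changes were modest in size: the highest was 1.70-fold, and 0 members reached 2-fold. By class, 8 of 13 pore genes, 6 of 7 alpha2delta genes, 3 of 7 beta genes and 10 of 12 gamma genes rose, with median differences of 0.26, 0.25, 0.13 and 0.30.

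The arrays were normalized over all probe sets, most of them without a gene symbol, and the scaling bears on the direction of small changes. When each array was centred on the probe sets that have 1 symbol, the 28 dpf median of all genes tested was 0.11 and that of the channel genes 0.45. Under centring, 36 channel genes rose and 0 fell, with 41.7% of all genes up and 23.5% down. Under quantile normalization over the named probe sets, 32 channel genes rose and 1 fell, with 31.3% and 30.5% of all genes. The medians under quantile normalization were 0.29 for the channel genes and 0.01 for all genes tested. The genes cacna1ba, cacna1c, cacna1ib, cacna2d2b and cacng6b did not pass on the deposited values but rose under both of these scalings. Under centring alone cacna1da, cacnb2a, cacnb3b and cacnb4b rose too.

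**Figure D1:**
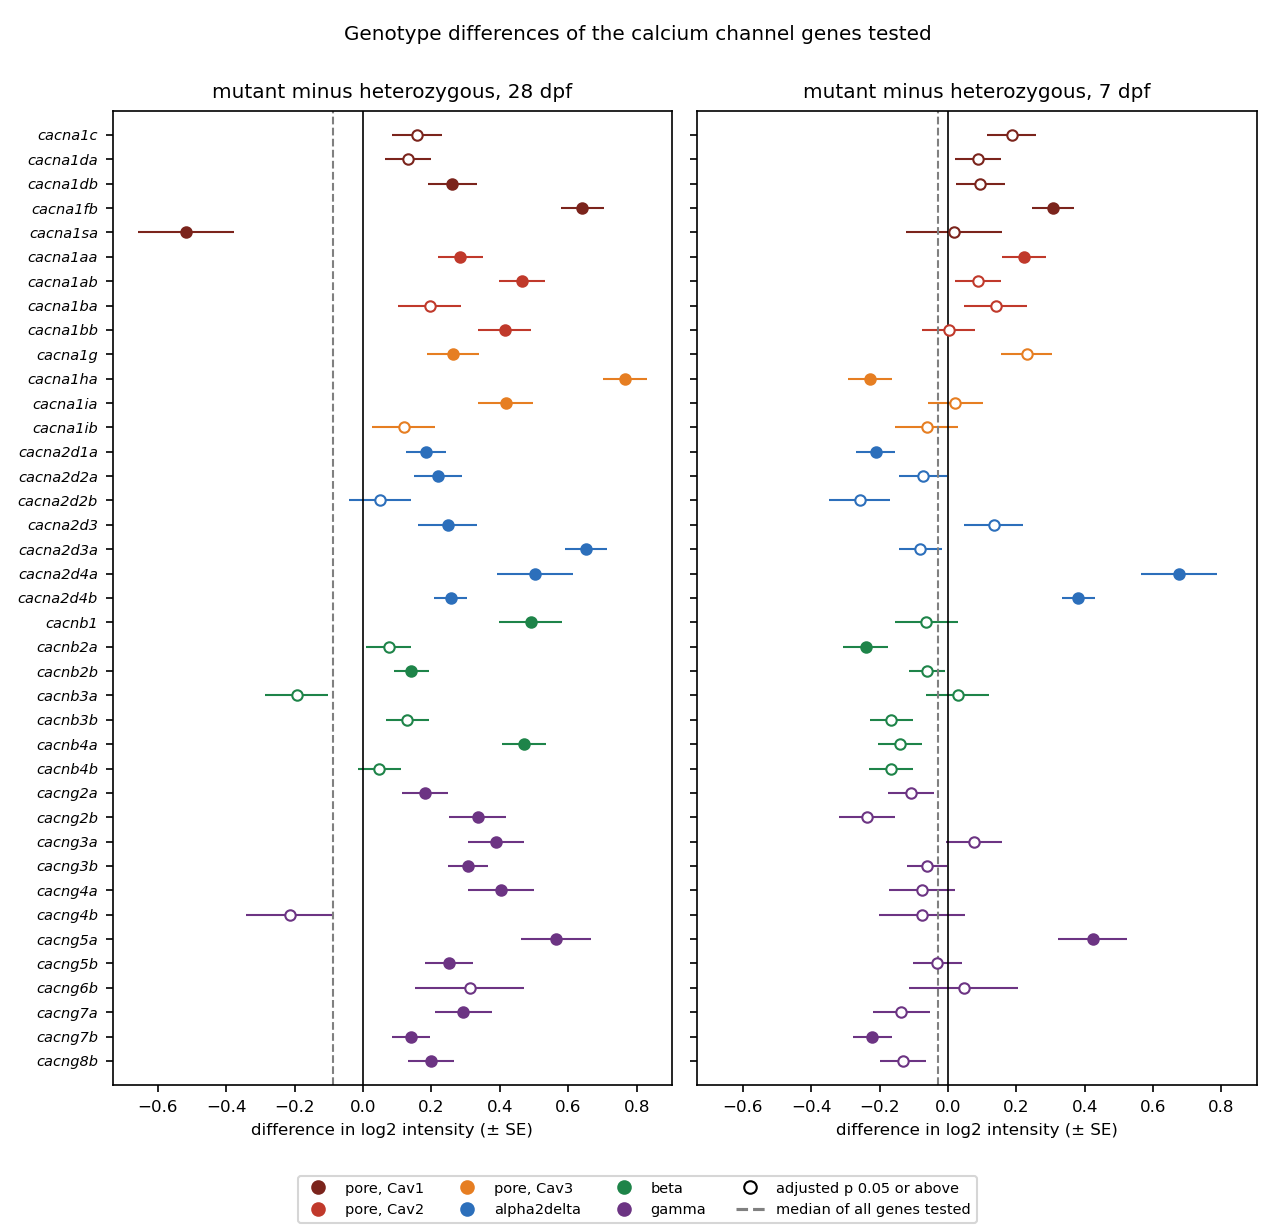
Differences of mutant minus heterozygous eyes for the 39 calcium channel genes tested, at 28 dpf on the left and at 7 dpf on the right; the x axis is the difference in log2 intensity, bars are standard errors (n = 3 pools per group), colours are subunit classes, filled points have an adjusted p under 0.05, and the dashed line is the median of all genes tested. At 28 dpf 36 of 39 points lie above 0, while at 7 dpf 18 do and the points spread on both sides of 0.

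Among the pore genes, the largest rise at 28 dpf was that of cacna1ha, a T-type (Cav3) gene. It stood at 9.07, 8.96 and 8.92 in the mutant pools at 28 dpf, against 8.22, 8.20 and 8.24 in the heterozygous pools. Every mutant pool lay well above every heterozygous pool, a difference of 0.77 ± 0.06 (SE, n = 3 pools per group, 1.70-fold, limma adjusted p = 9.5e-08). The other Cav3 genes that rose were cacna1ia, by 0.42 ± 0.08 (adjusted p = 3.0e-04), and cacna1g, by 0.26 ± 0.08 (adjusted p = 0.00651), each with no overlap between groups. The mutant pools held 7.59, 7.75 and 7.73 for cacna1ia, against 7.29, 7.31 and 7.21 in the heterozygous pools. For cacna1g they held 8.24, 8.50 and 8.40, against 8.07, 8.18 and 8.11. The fourth Cav3 gene, cacna1ib, differed by 0.12 ± 0.09 (95% interval -0.08 to 0.31) on its brightest probe set and did not pass. A second, dimmer cacna1ib probe set differed by 0.37 (limma adjusted p = 0.013 over all probe sets). The third and dimmest differed by 0.07 (0.713). Whether the probe sets of this gene differ from each other was not tested.

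The L-type (Cav1) gene cacna1fb, an orthologue of human CACNA1F, stood at 9.45, 9.56 and 9.49 in mutant pools at 28 dpf. The heterozygous pools held 8.88, 8.78 and 8.92, so the groups were far apart. The difference was 0.64 ± 0.06 (1.56-fold, limma adjusted p = 4.0e-07). The duplicate of this gene, cacna1fa, had no probe set of its own, and which eye cells express cacna1fb was not examined. The Cav1 gene cacna1db rose by 0.26 ± 0.07 (adjusted p = 0.00511), with 9.35, 9.43 and 9.48 in mutant pools and 9.09, 9.19 and 9.20 in heterozygous pools. Its duplicate cacna1da, the L-type channel of zebrafish hair cells, and cacna1c, the main L-type gene of the heart, differed by 0.13 (95% interval -0.01 to 0.27) and 0.16 (0.01 to 0.31) and did not pass.

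The skeletal muscle L-type gene cacna1sa was the 1 member that fell at 28 dpf. It stood at 6.45, 6.28 and 6.86 in the mutant pools, against 6.76, 7.22 and 7.16 in the heterozygous pools. Mutant pool 3 lay above heterozygous pool 1, so the groups overlapped. The difference was -0.52 ± 0.14 (limma adjusted p = 0.00456), and with arrays centred on the named probe sets it was -0.32 and did not pass (adjusted p = 0.0514). Of 30 skeletal muscle markers tested, 46.7% (14) fell and 6.67% (2) rose at 28 dpf, where 39% of all genes fell and 21.8% rose, and their median difference was -0.34, against -0.09 for all genes. The mean level of the 48 muscle markers on the array was 6.58, 6.04 and 6.60 in the mutant pools, against 6.48, 6.52 and 6.60 in the heterozygous pools. Of these 48 markers, 14 lay below the brightness limit on all arrays. The part of muscle tissue in the cacna1sa difference was not tested.

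Of the Cav2 genes, which serve transmitter release, 3 of 4 rose at 28 dpf. The P/Q-type gene cacna1ab stood at 8.75, 8.76 and 8.81 in mutant pools and at 8.26, 8.32 and 8.35 in heterozygous pools, a difference of 0.47 ± 0.07 (limma adjusted p = 2.2e-05). Its duplicate cacna1aa held 9.80, 9.84 and 9.80 in mutant pools and 9.43, 9.54 and 9.61 in heterozygous pools (0.28 ± 0.07, adjusted p = 0.00134). Both P/Q-type genes kept their groups apart. The N-type gene cacna1bb held 7.75, 8.02 and 8.02 in mutant pools and 7.58, 7.47 and 7.49 in heterozygous pools (0.41 ± 0.08, adjusted p = 2.5e-04). The other N-type gene, cacna1ba, differed by 0.19 (95% interval 0.00 to 0.39), with overlapping groups, and did not pass.

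The alpha2delta gene with the largest rise was cacna2d3a. It stood at 8.67, 8.84 and 8.82 in mutant pools at 28 dpf, against 8.16, 8.11 and 8.11 in heterozygous pools. The difference was 0.65 ± 0.06 (1.57-fold, limma adjusted p = 3.6e-07). Its relative cacna2d3 rose by 0.25 ± 0.09 (adjusted p = 0.0216), but here mutant pool 3 (7.09) lay below heterozygous pool 2 (7.11).

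Both zebrafish copies of the photoreceptor alpha2delta gene rose. In mutant pools cacna2d4a stood at 8.36, 8.95 and 8.72, against 8.28, 8.11 and 8.14 in heterozygous pools, and the lowest mutant pool came within 0.0836 of the highest heterozygous pool. The difference was 0.50 ± 0.11 (limma adjusted p = 0.00101). The values of cacna2d4b were tight, at 10.40, 10.40 and 10.41 in mutant pools and 10.16, 10.08 and 10.21 in heterozygous pools (0.26 ± 0.05, adjusted p = 3.0e-04). Of the genes whose mammalian products bind gabapentin, cacna2d1a held 8.67, 8.61 and 8.68 in mutant pools and 8.48, 8.54 and 8.39 in heterozygous pools (0.18 ± 0.06, adjusted p = 0.0119). For cacna2d2a the mutant pools held 9.93, 9.92 and 9.69 and the heterozygous pools 9.71, 9.58 and 9.59 (0.22 ± 0.07, adjusted p = 0.0123), with an overlap from mutant pool 3. The seventh alpha2delta gene, cacna2d2b, differed by 0.05 (95% interval -0.14 to 0.24) and did not pass. Leaving out 1 pool took cacna2d1a (without heterozygous pool 3, adjusted p = 0.0634), cacna2d2a (without mutant pool 1 or 2, 0.0595 and 0.0533) and cacna2d3 (without mutant pool 1 or heterozygous pool 1 or 3, 0.0983, 0.0554 and 0.102) out of the called genes.

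On the deposited values the beta genes divided at 28 dpf. The gene cacnb1, the beta subunit of skeletal muscle that is also made in neurons, stood at 7.36, 7.40 and 7.65 in mutant pools and at 6.88, 7.05 and 7.01 in heterozygous pools. It rose by 0.49 ± 0.09 (limma adjusted p = 2.4e-04), in the opposite direction to the muscle pore gene cacna1sa. The neuronal gene cacnb4a held 8.36, 8.26 and 8.29 in mutant pools and 7.79, 7.83 and 7.88 in heterozygous pools (0.47 ± 0.06, adjusted p = 1.3e-05). Both had clearly separate groups. The rise of cacnb2b was small, with 11.26, 11.20 and 11.30 in mutant pools and 11.18, 11.06 and 11.11 in heterozygous pools (0.14 ± 0.05, adjusted p = 0.0266), and leaving out mutant pool 1 or 3 or heterozygous pool 2 or 3 gave 0.0583, 0.101, 0.11 and 0.0579. The RefSeq synonyms of cacnb2a and cacnb2b list each other's symbol, so the letters of these 2 genes may be exchanged elsewhere. The other beta genes did not pass: cacnb2a differed by 0.07, cacnb3b by 0.13, cacnb4b by 0.05 and cacnb3a by -0.19 (95% interval -0.39 to 0.00). With arrays centred on the named probe sets, cacnb2a (0.27), cacnb3b (0.33) and cacnb4b (0.25) also rose (limma adjusted p = 0.00261, 1.5e-04 and 0.00303). Under quantile normalization over the named probe sets these genes did not pass, and cacnb3a passed under neither scaling.

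Of the gamma genes, cacng5a had the largest rise at 28 dpf. It stood at 9.36, 9.62 and 9.62 in mutant pools and at 8.74, 8.94 and 9.23 in heterozygous pools. The heterozygous pools were spread over 0.48 log2 units, yet all lay below the mutant pools (0.56 ± 0.10, 1.48-fold, limma adjusted p = 1.7e-04). The other gamma genes that rose were cacng4a (0.40), cacng3a (0.39), cacng2b (0.33), cacng3b (0.31), cacng7a (0.29), cacng5b (0.25), cacng8b (0.20), cacng2a (0.18) and cacng7b (0.14), with adjusted p from 3.0e-04 to 0.0412. All 10 belong to the TARP branch, whose founding member, mouse Cacng2, is the gene of the stargazer mutation.

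The pools behind these rises were as follows. Mutant pools held 7.57, 7.46 and 7.46 for cacng4a, against 6.88, 7.27 and 7.13 in heterozygous pools. For cacng3a the mutant pools held 8.60, 8.45 and 8.69 and the heterozygous pools 8.20, 8.16 and 8.22. In both genes the groups did not meet. For cacng3b the mutant pools held 10.43, 10.36 and 10.52 and the heterozygous pools 10.05, 10.16 and 10.17. For cacng2b the mutant pools held 7.87, 7.88 and 7.60 and the heterozygous pools 7.44, 7.43 and 7.47. For cacng7a the mutant pools held 7.11, 7.30 and 7.19 and the heterozygous pools 6.87, 6.94 and 6.91. These 3 were likewise separate, with the third mutant pool of cacng2b closest to the heterozygous range.

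Smaller gaps stood behind the remaining TARP genes. Mutant pools held 8.06, 8.09 and 8.28 for cacng5b, against 7.91, 7.83 and 7.93 in heterozygous pools. For cacng8b the mutant pools held 8.72, 8.63 and 8.76, and the heterozygous pools 8.49, 8.62 and 8.41. The lowest mutant pool of cacng8b was almost level with its highest heterozygous pool. For cacng2a the mutant pools held 8.73, 8.69 and 8.79, and the heterozygous pools 8.63, 8.59 and 8.45. For cacng7b the mutant pools held 8.68, 8.66 and 8.60, and the heterozygous pools 8.45, 8.52 and 8.55. Leaving out a 28 dpf pool ended the call of cacng8b (without mutant pool 3, heterozygous pool 1 or heterozygous pool 3, adjusted p 0.0684, 0.05 and 0.0886), of cacng2a (without mutant pool 3 or heterozygous pool 3, 0.092 and 0.136) and of cacng7b (without mutant pool 1 or 2 or heterozygous pool 1 or 2, 0.109, 0.083, 0.143 and 0.0723). The call of cacng7b also went without any of heterozygous pools 1, 2 and 3 of 7 dpf (0.0508, 0.0558 and 0.0504), which share the fit's estimate of the spread, and in the fit blocked on pool number (0.0551).

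The 2 gamma genes tested that did not pass were cacng4b, at -0.21 (95% interval -0.48 to 0.05), and the muscle-type gene cacng6b, at 0.31 (-0.03 to 0.65). The 5 dim genes were examined in a fit with no brightness limit, where 0 passed at 28 dpf or at 7 dpf in limma and 1 had an unadjusted p under 0.05 at each age, cacng6a. Their differences at 28 dpf were 0.09 for cacna1sb, 0.17 for cacng1a, 0.17 for cacng1b, -0.18 for cacng6a and -0.06 for cacng8a.

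Zebrafish hold many of these genes as duplicates, named a and b, and 14 such pairs had both copies tested. At 28 dpf both copies rose in 6 pairs (cacna1a, cacna2d4, cacng2, cacng3, cacng5 and cacng7), 1 copy rose in 7 pairs and neither rose in 1 (cacnb3). Singly, 69.2% of the channel genes and 21.8% of all genes tested rose. The shares over all duplicate pairs on the array were not counted. The most unequal pair was cacng4, with 0.40 for the a copy and -0.21 for the b copy, followed by cacnb4 with 0.47 and 0.05. With all probe sets tested, cacna2d3 and cacnb2b (adjusted p = 0.0666 and 0.0639) and likewise cacng2a, cacng7b and cacng8b (0.0745, 0.0754 and 0.0562) did not pass. Differences between copies were not tested, and probes of near-identical copies may read each other's RNA.

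At 7 dpf far fewer channel genes changed: 5 rose and 4 fell of 39. Of all genes tested, 4.05% rose and 8.4% fell (12.4% either way). The median difference was -0.06 for the channel genes and -0.03 for all genes, and 18 of the 39 differences lay above 0. The mutant pools lay entirely above the heterozygous pools in 8 channel genes and below them in 10, where 11.8% and 18.6% of all genes did so (30.4% either way). The highest change was 1.60-fold. All 5 genes that rose at 7 dpf also rose at 28 dpf. The share of all genes tested that rose at both ages was not counted.

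These 5 genes were the L-type pore gene cacna1fb, the alpha2delta genes cacna2d4a and cacna2d4b, the P/Q-type gene cacna1aa and the TARP gene cacng5a. At 7 dpf the mutant pools of cacna2d4a held 8.48, 8.54 and 8.58, against 7.794, 7.775 and 8.004 in heterozygous pools. The groups were wide apart, with a difference of 0.68 ± 0.11 (limma adjusted p = 5.8e-04). For cacna2d4b the mutant pools held 10.45, 10.43 and 10.46 and the heterozygous pools 10.03, 10.12 and 10.05 (0.38 ± 0.05, adjusted p = 6.1e-05). For cacna1fb the mutant pools held 9.21, 9.25 and 9.39 and the heterozygous pools 8.996, 8.917 and 9.016 (0.31 ± 0.06, adjusted p = 0.0031). In each of these 3 genes the call held under all alternatives that were run.

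The gene cacng5a held 9.52, 9.40 and 9.31 in mutant pools at 7 dpf and 9.002, 8.925 and 9.031 in heterozygous pools (0.42 ± 0.10, limma adjusted p = 0.0101). For cacna1aa the mutant pools held 9.72, 9.67 and 9.90 and the heterozygous pools 9.51, 9.50 and 9.61 (0.22 ± 0.07, adjusted p = 0.0335). Neither gene's groups overlapped. The call of cacna1aa went without mutant pool 3 (adjusted p = 0.157) and without heterozygous pool 1 or 2 (0.111 and 0.125). The gene cacna1g, at 0.23 ± 0.08, did not pass at 7 dpf (adjusted p = 0.0558), though its mutant pools all lay above its heterozygous pools. It rose with arrays centred on the named probe sets (limma adjusted p = 0.0312) and with quantile normalization over them (0.0225).

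The 4 genes that fell at 7 dpf were cacnb2a, cacna1ha, cacng7b and cacna2d1a. For cacnb2a, whose mouse counterpart Cacnb2 is needed at photoreceptor synapses, the mutant pools held 8.91, 8.73 and 8.93 and the heterozygous pools 9.12, 9.08 and 9.11 (-0.24 ± 0.07, limma adjusted p = 0.0222). For cacna1ha the mutant pools held 8.84, 8.74 and 8.94 and the heterozygous pools 9.13, 9.05 and 9.03 (-0.23 ± 0.06, adjusted p = 0.0268). In each of the 4 genes all mutant pools lay below all heterozygous pools. For cacng7b the mutant pools held 8.08, 8.03 and 8.08 and the heterozygous pools 8.31, 8.27 and 8.28 (-0.22 ± 0.06, adjusted p = 0.0148). For cacna2d1a the mutant pools held 8.10, 8.15 and 8.14 and the heterozygous pools 8.33, 8.37 and 8.33 (-0.21 ± 0.06, adjusted p = 0.0235). These falls sat close to the threshold: 0 passed without mutant pool 2 or without heterozygous pool 1, 1 passed without heterozygous pool 2, and 2 passed without mutant pool 1 or heterozygous pool 3. With arrays centred on, or quantile normalized over, the named probe sets, 1 of the 4 falls passed, that of cacng7b. With all probe sets tested, that of cacng7b was again the 1 fall that passed, and the rises of cacna1aa (adjusted p = 0.139) and cacng5a (0.0838) did not.

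**Figure D2:**
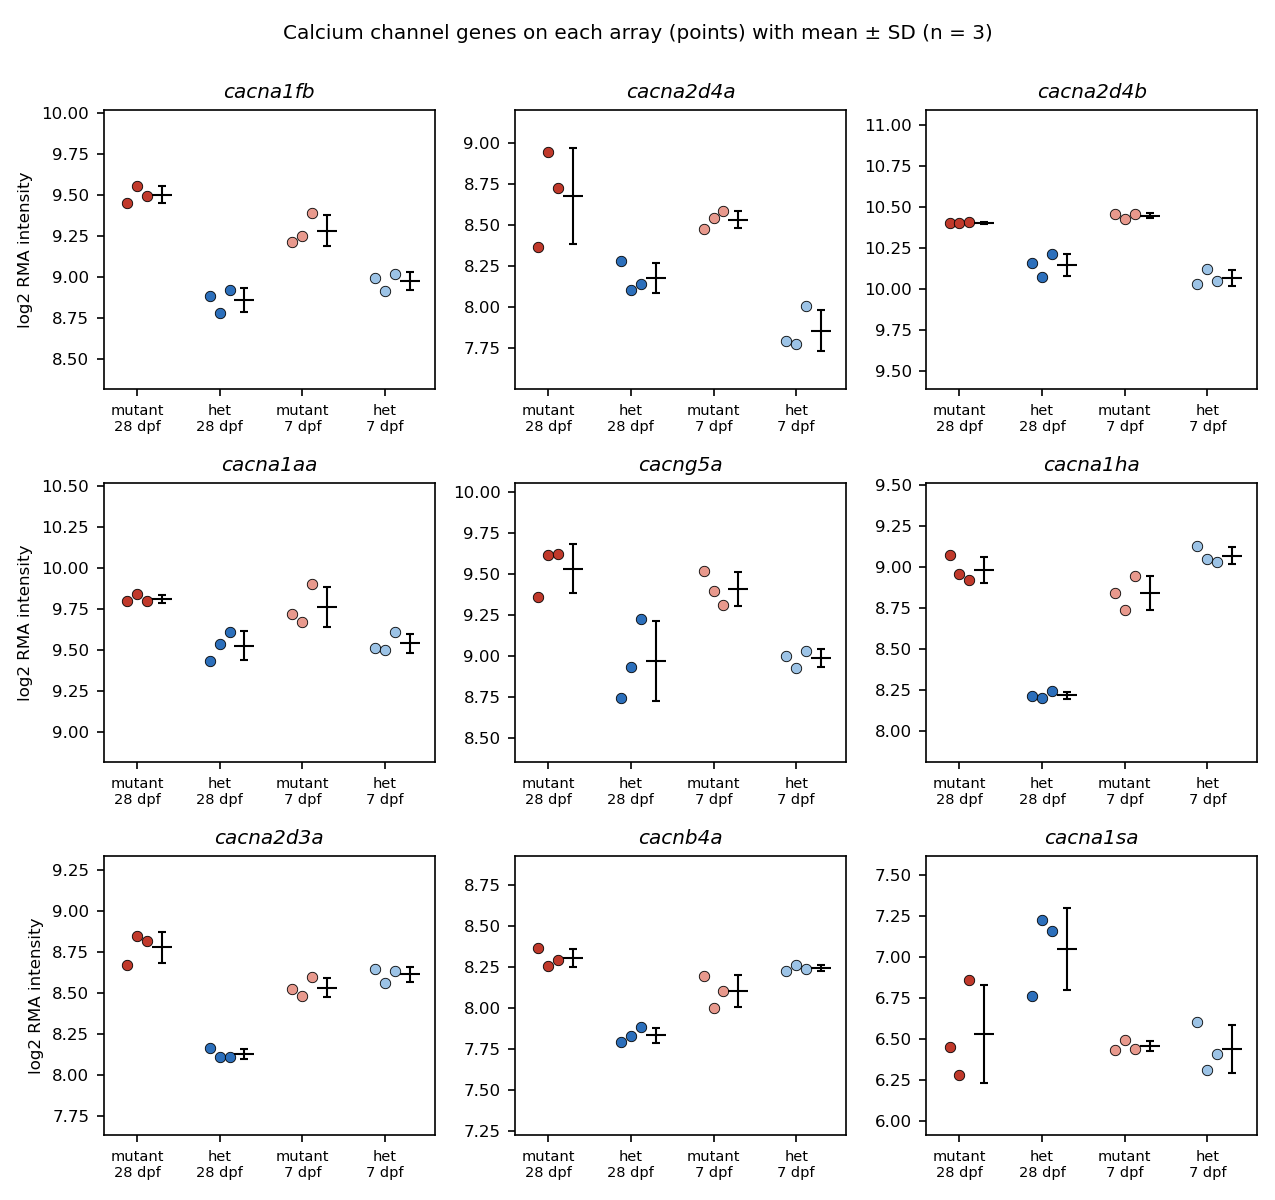
Log2 RMA intensity of 9 calcium channel genes on each of the 12 arrays (points, 1 per pool), with the mean and SD of each group (n = 3); groups run from mutant and heterozygous eyes at 28 dpf to mutant and heterozygous eyes at 7 dpf, and all panels span the same log2 range. Mutant pools lie above heterozygous pools at both ages for cacna1fb, cacna2d4a, cacna2d4b, cacna1aa and cacng5a, whereas the heterozygous pools of cacna1ha at 28 dpf (8.20 to 8.24) lie below all other groups of that gene.

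The change of the genotype difference between ages was tested as an interaction, the difference at 28 dpf minus that at 7 dpf. It was above 0 and past the threshold in 22 of 39 channel genes and below 0 in 1, against 18.1% and 29.1% of all genes tested (47.2% either way). The median interaction was 0.29 for the channel genes and -0.07 for all genes. It was largest for cacna1ha, at 0.99 ± 0.09 (limma adjusted p = 7.8e-07), followed by cacna2d3a at 0.73 ± 0.09 (9.2e-06) and cacnb4a at 0.61 ± 0.09 (6.3e-05). For the L-type gene cacna1fb it was 0.33 ± 0.09 (adjusted p = 0.00559), so its rise was larger at 28 dpf. For the other genes that rose at both ages the interaction did not pass on the deposited values. It was -0.17 for cacna2d4a (95% interval -0.51 to 0.16), -0.13 for cacna2d4b (-0.27 to 0.02), 0.06 for cacna1aa (-0.13 to 0.26) and 0.14 for cacng5a (-0.16 to 0.44). Under quantile normalization over the named probe sets that of cacna2d4b passed, at -0.19 (limma adjusted p = 0.0345).

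By class, the interaction was above 0 and past the threshold in 5 of 13 pore genes, 3 of 7 alpha2delta genes, 5 of 7 beta genes and 9 of 12 gamma genes. Of the 22, 20 had also risen at 28 dpf, and the others were the beta genes cacnb2a and cacnb3b. The interaction contains the 28 dpf difference, so part of this overlap is built in. The same overlap over all genes tested was not counted. On the deposited values the single interaction below 0 and past the threshold was that of cacna1sa, at -0.53 ± 0.20 (limma adjusted p = 0.0361). It did not pass without any 1 of mutant pools 1 and 2 or heterozygous pools 2 and 3 of 28 dpf (adjusted p from 0.0723 to 0.0944), nor without any mutant pool or heterozygous pool 2 or 3 of 7 dpf (0.0505 to 0.0859). With arrays centred on, or quantile normalized over, the named probe sets, cacna1sa did not pass either (-0.37 and -0.40, limma adjusted p = 0.128 and 0.104). Over the 39 channel genes the differences at 28 and 7 dpf, which share no arrays, had a Pearson r of 0.228 and a Spearman rho of 0.257, while over all genes tested Pearson's r was 0.0546. These are descriptions across genes that are not independent.

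The change from 7 to 28 dpf within each genotype gives the other view of these values. In mutant eyes 15 of 39 channel genes rose with age and 1 fell, against 26% and 37.9% of all genes tested (63.9% either way). In heterozygous eyes 6 rose and 11 fell, against 20.9% and 22.1% of all genes (43% either way). The median change was 0.14 in mutant and -0.08 in heterozygous eyes, where all genes had -0.06 and -0.02. Without heterozygous pool 2 of 7 dpf, 3 rose in heterozygous eyes. With arrays centred on the named probe sets, 28 rose and 0 fell in mutant eyes, where 39.3% of all genes rose and 27.3% fell. In heterozygous eyes centring gave 5 rises and 13 falls, against 18.4% and 27% of all genes. The mutant and heterozygous age changes had a Pearson r of 0.356 over the 39 genes. The same r over all genes tested was not computed, so no reading of its size is made.

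The T-type gene cacna1ha had the largest fall with age in heterozygous eyes, -0.85 ± 0.06 (limma adjusted p = 3.6e-08). In mutant eyes it changed by 0.14 (95% interval 0.01 to 0.28, adjusted p = 0.0609). With arrays centred on the named probe sets cacna1ha rose with age in mutant eyes, by 0.28 (limma adjusted p = 0.00215). The order of its 4 group means was heterozygous 7 dpf (9.07), mutant 28 dpf (8.98), mutant 7 dpf (8.84) and heterozygous 28 dpf (8.22). A second T-type gene, cacna1ia, fell with age in both genotypes (-0.22 in mutant and -0.62 in heterozygous eyes), the mutant fall being lost without mutant pool 1 of 28 dpf (adjusted p = 0.0975) or mutant pool 3 of 7 dpf (0.127). The mutant value was -0.09 under centring (adjusted p = 0.367) and -0.10 under quantile normalization over the named probe sets (0.296), so that it did not pass in either.

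The shares of all genes tested with the combinations of age changes given next were not counted. A fall in heterozygous eyes and a rise in mutant eyes with age was seen in cacna2d3a and cacnb4a. For cacna2d3a the change was 0.25 in mutant and -0.49 in heterozygous eyes, and for cacnb4a 0.20 and -0.41. The rise of cacnb4a in mutant eyes did not pass without mutant pool 2 of 7 dpf (adjusted p = 0.0703). A further 8 genes fell with age in heterozygous eyes and did not pass in mutant eyes, among them the release channel genes cacna1bb (-0.44) and cacna1ab (-0.29) and the TARP genes cacng2b (-0.44), cacng8b (-0.30) and cacng3b (-0.24). In mutant eyes these 5 genes changed by -0.02, 0.09, 0.13, 0.03 and 0.13. This division depended on the scaling. With arrays centred on the named probe sets, cacna1ab, cacng2b, cacng8b and cacng3b rose in mutant eyes (limma adjusted p = 0.0151, 0.0131, 0.0345 and 8.8e-04). So did cacna1ha (0.00215) and cacnb2a (0.00258), and all of these genes still fell in heterozygous eyes. Under quantile normalization over the named probe sets cacng2b rose in mutant eyes (0.0184).

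Other members rose with age. In mutant eyes cacng7a rose by 0.60, cacng7b by 0.58, cacnb2b by 0.54, cacna2d1a by 0.52, cacng4a by 0.45 and cacnb1 by 0.43. In heterozygous eyes cacng7b rose by 0.22 and cacnb2b by 0.33, while cacng7a, cacna2d1a, cacng4a and cacnb1 stood at 0.17, 0.12, -0.03 and -0.12 and did not pass. The share of all genes tested that rose with age in both genotypes was not counted. Among the channel genes, a rise with age in both genotypes was found in 4 genes: cacng7b, cacnb2b, cacna1g and cacna1c. For cacna1c it was 0.18 in mutant and 0.21 in heterozygous eyes, and its calls were lost without mutant pool 2 or 3 of 28 dpf or any mutant pool of 7 dpf (adjusted p from 0.0547 to 0.144), and without heterozygous pool 2 or 3 of 28 dpf or any heterozygous pool of 7 dpf (0.0507 to 0.121). For cacna1g it was 0.27 and 0.24, and the heterozygous call was lost without heterozygous pool 2 of 28 dpf or pool 2 or 3 of 7 dpf (0.0716, 0.0546 and 0.0664). The muscle gene cacna1sa rose with age in heterozygous eyes by 0.61 (limma adjusted p = 0.00235) and stood at 0.07 (95% interval -0.22 to 0.37) in mutant eyes. The mean of the 48 skeletal muscle markers ranged over 6.04 to 6.60 in mutant pools at 28 dpf, 6.48 to 6.60 in heterozygous pools at 28 dpf, 5.78 to 5.88 in mutant pools at 7 dpf and 5.53 to 5.80 in heterozygous pools at 7 dpf, and its part in the age change was not tested.

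**Figure D3:**
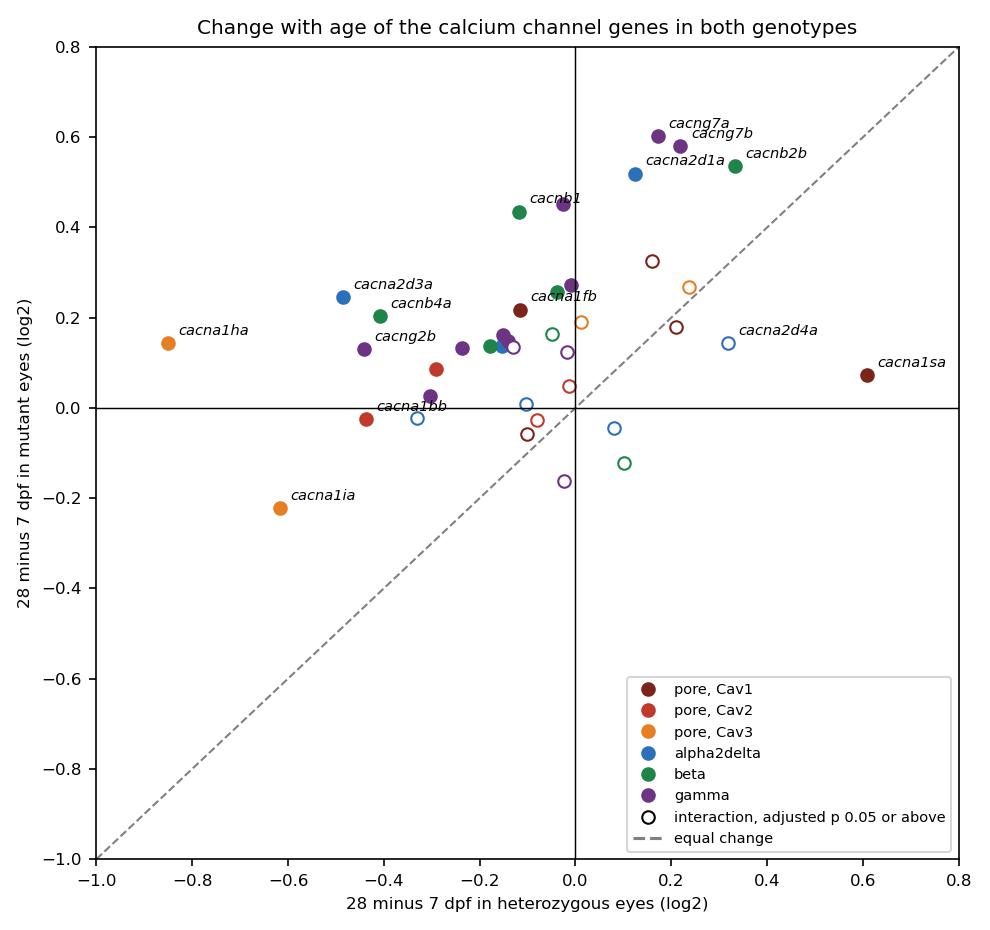
Change from 7 to 28 dpf of the 39 calcium channel genes, in mutant eyes on the y axis and in heterozygous eyes on the x axis (both in log2 units); colours are subunit classes, filled points have an interaction with an adjusted p under 0.05, and the dashed diagonal marks equal change. The 22 filled points above the diagonal include cacna1ha at the far left (0.14 in mutant, -0.85 in heterozygous eyes), and cacna1sa is the 1 filled point below it (0.07 and 0.61).

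Genes that work with these channels were counted in the same fit, to be read beside the shares of all genes tested. Of all genes, 21.8% rose and 39% fell at 28 dpf, and 4.05% rose and 8.4% fell at 7 dpf. The lists were chosen with earlier results of these data known, so their counts are descriptions and not separate support. Of 24 AMPA receptor genes and partners tested, 66.7% (16) rose and 12.5% (3) fell at 28 dpf, with a median of 0.24. The auxiliary subunit genes gsg1l (0.74) and shisa6 (0.67) and the scaffold gene dlg3 (0.54) rose, and the cornichon family gene cnih4 fell (-0.92). At 7 dpf 16.7% of the list (4) rose and 12.5% (3) fell, with gsg1l at -0.84 and dlg3 at -0.30 among the falls and shisa7b and gsg1l2b (both 0.26) among the rises. The genes gsg1l and dlg3 thus fell at 7 dpf and rose at 28 dpf. The channel genes cacna1ha, cacna2d1a and cacng7b did so too, but each of their 7 dpf falls was lost under some alternatives. So were the 28 dpf rises of cacna2d1a and cacng7b. The share of all genes tested that fell at 7 dpf and rose at 28 dpf was not counted.

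Of 28 genes listed for the photoreceptor to bipolar cell synapse, 64.3% (18) rose and 10.7% (3) fell at 28 dpf (median 0.25), against 21.8% and 39% of all genes tested. They included the adhesion gene lrfn2b (0.84), the bipolar dendrite genes gpr179 (0.78) and nyx (0.73), and grm6b (0.74), a glutamate receptor of ON bipolar cells. At 7 dpf 17.9% (5) rose and 17.9% (5) fell, against 4.05% and 8.4% of all genes, with elfn1a at 0.51, lrfn2b at 0.52, gpr179 at 0.47 and rgs9a at -0.52. The gene rgs9a was on the list but is not particular to this synapse. Of 25 active zone and calcium-binding protein genes, 40% (10) rose and 8% (2) fell at 28 dpf (median 0.14), the rises including cabp2a (0.55), cabp1b (0.46), ppfia2 (0.54) and pcloa (0.43). At 7 dpf the shares of this list were close to those of all genes: 4% (1) rose, unc13a (0.39), and 12% (3) fell: the bipolar cell calcium-binding genes cabp5b (-0.90) and cabp5a (-0.45), and unc119a2 (-0.29).

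Among 23 channel regulators, 39.1% (9) rose and 21.7% (5) fell at 28 dpf (median 0.05), against 21.8% and 39% of all genes tested. The RGK-type small GTPase genes gem (0.88) and rrad (0.52), whose mammalian products inhibit high-voltage-activated calcium channels, rose, as did akap7 (0.51), which anchors protein kinase A, and gnb3a (0.46), a G protein beta gene. At 7 dpf 4.35% (1) rose, rem1 (0.30), and 13% (3) fell, against 4.05% and 8.4% of all genes: akap7 (-0.55), camk2b2 (-0.43) and gnb5b (-0.27). Of 33 genes of calcium clearance and stores, 24.2% (8) rose, close to the share of all genes, and 27.3% (9) fell at 28 dpf (median 0.03), with the store release gene itpr1a (0.53) and the exchanger gene slc24a5 (0.51) up, and the muscle pump gene atp2a1 (-0.66) and the rod exchanger gene slc24a1 (-0.45) down. At 7 dpf 0 rose and 12.1% (4) fell, all of them sodium-calcium exchanger genes: slc8a4b (-0.59), slc24a3 (-0.53), slc24a4b (-0.33) and slc8a2b (-0.32). Of 13 excitation-contraction coupling genes, 38.5% (5) rose and 23.1% (3) fell at 28 dpf (median 0.13), with the junctophilin genes jph1a (0.79) and jph3b (0.70) up and the muscle store genes tmem38a (-0.50) and casq1a (-0.42) down. At 7 dpf fkbp1b (0.33) and jph3b (0.26) rose and the ryanodine receptor gene ryr2a fell (-0.48).

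Markers of the cell types of the eye were counted beside the same shares of all genes at 28 dpf (21.8% rose, 39% fell, median -0.09). Of 20 bipolar cell markers 50% (10) rose and 15% (3) fell (median 0.15), and of 34 amacrine, ganglion and horizontal cell markers 47.1% (16) rose and 17.6% (6) fell (0.08). The bipolar list shares nyx and grm6b with the synapse list, and cabp2a, cabp5a and cabp5b with the active zone list. The counts of these lists are therefore not separate. Of 36 photoreceptor markers 30.6% (11) rose and 30.6% (11) fell (-0.01), of 13 Müller glia markers 30.8% (4) rose and 23.1% (3) fell (0.03), and of 25 lens markers 8% (2) rose and 28% (7) fell (-0.02). Of 12 pigment epithelium markers 25% (3) rose and 50% (6) fell (-0.09), and of 6 smooth muscle markers 0 rose and 50% (3) fell (-0.32). The mean level of the bipolar list ranged over 9.24 to 9.29 in mutant pools and 9.06 to 9.09 in heterozygous pools at 28 dpf, and that of the amacrine, ganglion and horizontal list over 8.58 to 8.61 and 8.47 to 8.53. For photoreceptors the ranges were 10.64 to 10.69 in mutant pools and 10.66 to 10.77 in heterozygous pools, and for lens 10.45 to 10.61 and 10.67 to 10.80. The part of a change in cell type shares in the rises of the channel genes was not tested.

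At 7 dpf, where 4.05% of all genes rose and 8.4% fell, 5% (1) of the 20 bipolar markers rose and 20% (4) fell, and the mean of that list ranged over 8.98 to 9.05 in mutant pools and 9.13 to 9.14 in heterozygous pools. Of the 36 photoreceptor markers 8.33% (3) rose and 30.6% (11) fell at 7 dpf, with a median difference of 0.004 and 19 differences above 0. The list mean over 3 pools was 10.02 in mutant and 10.08 in heterozygous eyes. Of the 34 amacrine, ganglion and horizontal markers 2.94% (1) rose and 8.82% (3) fell, close to the shares of all genes. Of the 13 Müller glia markers 0 rose and 46.2% (6) fell, of the 12 pigment epithelium markers 0 rose and 41.7% (5) fell, and of the 6 smooth muscle markers 0 rose and 33.3% (2) fell. Of the 25 lens and 30 skeletal muscle markers 0 passed in limma at 7 dpf, with 3 and 2 at an unadjusted p under 0.05.

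**Figure D4:**
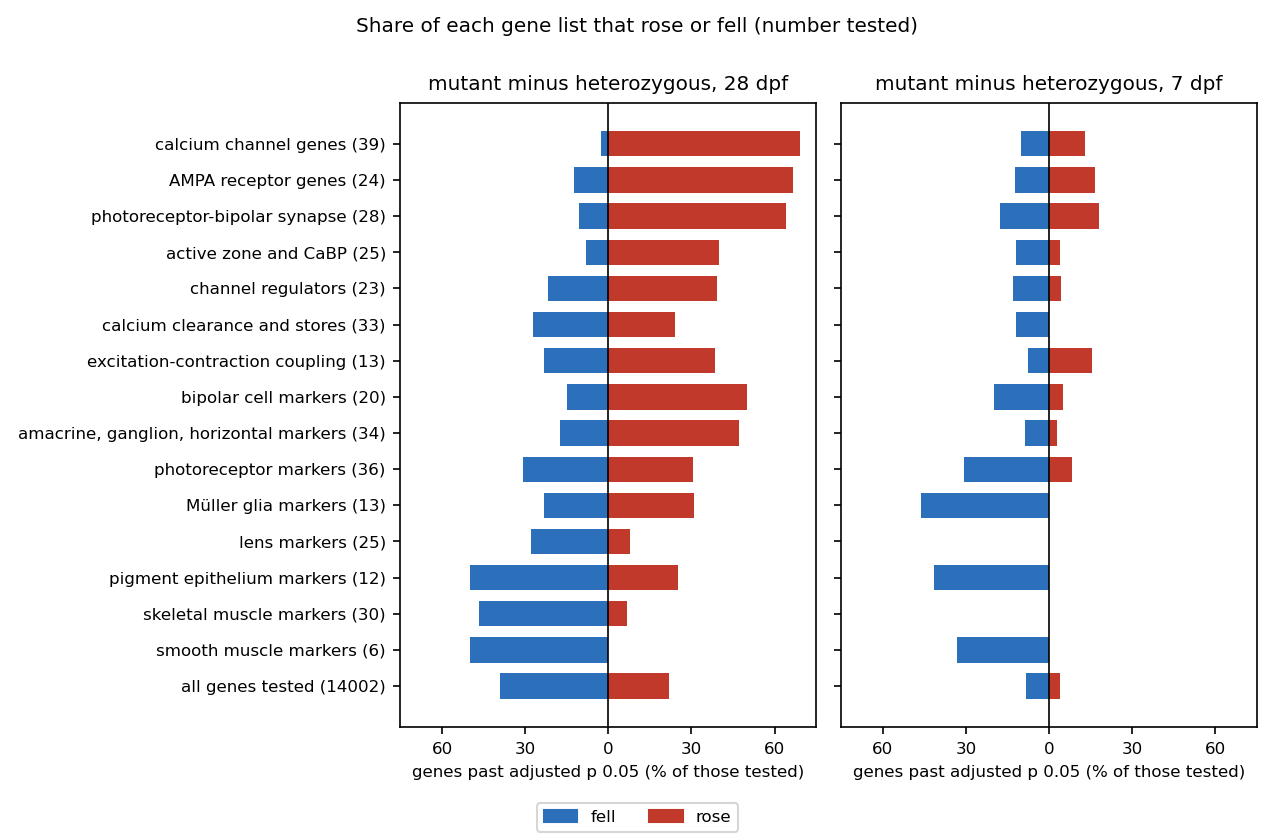
Share of each gene list with an adjusted p under 0.05 in mutant minus heterozygous eyes, at 28 dpf on the left and 7 dpf on the right; bars to the right of 0 are rises and bars to the left are falls, as a percentage of the genes tested (numbers in brackets). At 28 dpf 69.2% of the calcium channel genes, 66.7% of the AMPA receptor genes and 64.3% of the photoreceptor to bipolar cell synapse list rose, beside 21.8% of all genes. At 7 dpf 12.8% of the channel genes rose and 10.3% fell. The lists were chosen with earlier results of these data known.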

How the data were processed

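Each deposited value is the log2 intensity of a probe set on 1 array, made by the authors with Affymetrix Expression Console and RMA, per the submitters' processing notes (no versions given). The labelling protocol names another array type, and probe sets were named through the annotation of the zebrafish platform, with the RefSeq gene table of assembly GRCz12tu used for names only. No coordinates are printed, because no build is named for the array. Of 75212 probe sets, 20806 had 1 gene symbol, 855 several and 53551 none. Only those with 1 symbol entered the tests, with the brightest probe set per gene. The tests took genes that exceeded the 33rd percentile of named probe sets on 3 or more of 12 arrays.

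The fit used limma 3.58.1 and R 4.3.3, with 1 mean per group over all 12 arrays and eBayes moderation with a variance trend (8 residual degrees of freedom). P-values were adjusted by Benjamini-Hochberg over 14002 genes at a threshold of 0.05. Samples were grouped by their titles. The median standard error of a genotype difference was 0.08, and the number of arrays limits the precision. No 2 arrays were identical (0 pairs), no batch label was at hand, and the probe set of mmachc, which also lists another gene, was not used as a check of the mutation.

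The members, the gene lists and the marker lists were chosen with earlier results of these data known, and lists overlap in part. Every member is named. From each list of partner genes, at most 4 called members, those with the largest differences, are named at each age. Alternatives were a replicate block, no brightness limit or a stricter one (50th percentile), the mean over probe sets, centring or quantile normalization over named probe sets, no variance trend, only the compared groups, all probe sets, and each pool left out in turn.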

Additional observations from a re-analysis of the deposited data

Results flagged for a closer look

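In 23 of 39 channel genes the genotype difference itself differed between the ages by the interaction test of limma (28 dpf minus 7 dpf, adjusted p under 0.05). It was above 0 in 22 and below 0 in 1. Of all genes tested, 47.2% passed either way, 18.1% above 0 and 29.1% below. For pore genes the interaction was 0.99 for cacna1ha, 0.41 for cacna1bb, 0.39 for cacna1ia, 0.38 for cacna1ab, 0.33 for cacna1fb and -0.53 for cacna1sa. For alpha2delta genes it was 0.73 for cacna2d3a, 0.40 for cacna2d1a and 0.29 for cacna2d2a. For beta genes it was 0.61 for cacnb4a, 0.55 for cacnb1, 0.32 for cacnb2a, 0.29 for cacnb3b and 0.20 for cacnb2b. For gamma genes it was 0.57 for cacng2b, 0.48 for cacng4a, 0.43 for cacng7a, 0.37 for cacng3b, 0.36 for cacng7b, 0.33 for cacng8b, 0.31 for cacng3a, 0.29 for cacng2a and 0.28 for cacng5b. Of these, 16 passed under every alternative that was run; the exceptions were cacna1sa, cacna2d2a, cacnb2b, cacnb3b, cacng2a, cacng3a and cacng5b.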

How the results depend on the processing

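No called member changed sign under the alternatives run. The calls that passed under all of them were 20 of 28 at 28 dpf, 3 of 9 at 7 dpf, 16 of 23 for the interaction, 12 of 16 for age in mutant eyes and 13 of 17 for age in heterozygous eyes. Without a brightness limit, 2 channel genes had an interaction below 0 and 2 fell with age in mutant eyes, the added gene being the dim cacng6a in each. With the stricter limit 0 fell at 28 dpf and 0 had an interaction below 0, since cacna1sa was then not tested. Centring on named probe sets left 0 falls at 28 dpf, 1 fall at 7 dpf, 0 interactions below 0, and 28 rises and 0 falls with age in mutant eyes. Quantile normalization over them left 1 fall at 7 dpf and 0 falls with age in mutant eyes. The 1 interaction below 0 was then that of cacna2d4b, and that of cacna1sa did not pass. With all probe sets tested, 3 rose and 1 fell at 7 dpf, 0 interactions lay below 0, 0 fell with age in mutant eyes and 3 rose with age in heterozygous eyes. The cause was not tested.

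Leaving out 1 pool gave 23 to 27 rises and 1 to 1 falls at 28 dpf, 4 to 6 rises and 0 to 5 falls at 7 dpf, 18 to 22 interactions above 0 and 0 to 1 below, 12 to 17 rises and 0 to 1 falls with age in mutant eyes, and 3 to 6 rises and 10 to 12 falls with age in heterozygous eyes (3 rises without heterozygous pool 2 of 7 dpf). Of 18 correlations between the deviations of pools with the same number, 2 exceeded 0.1 (range -0.0972 to 0.139). For mutant and heterozygous pools of 28 dpf all were above 0 (0.139, 0.0882 and 0.0955 for pools 1, 2 and 3). Pools with different numbers were not compared, so this does not settle whether the numbers pair the pools. With the replicate number as a block, 27 rose and 1 fell at 28 dpf, 5 and 4 at 7 dpf, 22 and 1 in the interaction, 16 and 1 with age in mutant eyes and 6 and 11 with age in heterozygous eyes. Under the block cacng7b lost its call at 28 dpf (adjusted p = 0.0551), and cacnb3b at 28 dpf (0.0444) and cacng3a with age in mutant eyes (0.0385) gained one. Fits of only the compared groups have no value for the interaction, which needs all 4 groups.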
